A study of Mus musculus with 2 samples.

Results

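Deubiquitinases are the enzymes that take ubiquitin off proteins, and their transcripts were compared between the second polar body (PB2) and the zygote of the mouse at the late one-cell stage. The members were taken by gene symbol, as the genes whose symbols begin with Usp and a digit, Otub1 or Otub2, Otud or Stambp, together with Uchl1 to Uchl5, Josd1, Josd2, Atxn3, Bap1, Cyld, Brcc3 and Mysm1. The deposited table held 68 such genes among 11262. The rule used no expression value. One of the 68, Usp6nl, encodes a GTPase-activating protein for Rab proteins that shares a name with the family and is not a deubiquitinase. It had 1.9 TPM in the zygote against 2.7 in PB2.

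Both groups were untreated C57BL/6 embryos, a strain the study's methods give as C57BL/6N, collected from the oviduct and cultured in KSOM medium. The zona pellucida was dissolved in acid Tyrode's solution, and PB2 was parted from the rest of the embryo by pipetting in trypsin. PB2 is the small cell extruded when the egg completes its second meiotic division after fertilization, and it carries a sample of egg cytoplasm. Each group was a pool of cells amplified into 1 library, so there are no replicates, no test was run, and each difference describes this pair of libraries. Values are TPM, the abundance of a transcript on a fixed total per library with gene length taken into account, deposited to 1 decimal. The depth of both libraries is unknown, so counting error cannot be given. In such pools fewer cells and less RNA per cell cannot be told apart. All 12 of the listed oocyte and egg markers were in the table, with a summed level of 42444.6 TPM in the zygote against 28782.9 in PB2. Of these markers 4 passed 2-fold towards PB2 and 2 towards the zygote, Dppa3 among the latter with 22561.9 and 8070.2 TPM and Zar1 among the former with 157.9 and 1019.2 TPM. Of 13 cumulus and granulosa cell markers 3 were in the table, and their summed level was 74.7 TPM in the zygote against 75.6 in PB2, nearly all of it Cyp19a1. Of 6 sperm markers 2 were in the table, with sums of 20.8 and 22.6 TPM, and none of the 5 blood cell markers was.

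Ubiquitin is a small protein that is attached to other proteins through a cascade of E1, E2 and E3 enzymes, often as chains that send the target to the proteasome or change its partners. Deubiquitinases reverse this, trim chains and recycle free ubiquitin. Most are cysteine proteases, of the USP, OTU, UCH and Josephin classes, and those of the JAMM class are zinc metalloproteases. In eggs and early embryos, where proteins stored during oocyte growth are removed on schedule, removal by ubiquitin and its reversal are part of meiotic exit and of the passage from maternal to embryonic control.

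Taken as a family, the deubiquitinases were close to evenly divided between the libraries. The log2 ratio, log2((PB2 TPM + 1)/(zygote TPM + 1)), was computed for genes with at least 1 TPM in either library, and 67 of the 68 members met this. Usp40 did not, with 0.3 TPM in the zygote against 0.1 in PB2. Of the 67, 33 had a ratio above 0 and 34 below, while of all 10645 genes compared 6298 lay above 0 and 4262 below. The median was -0.01 for the members against 0.21 over all genes compared. By sign and median the members lay further towards the zygote than the table as a whole, which was not tested. At least 2-fold higher in PB2 were 12 members, 17.9%, against 18.9% of all genes compared. Another 6 members, 8.96%, were higher by that much in the zygote, against 8.09% of all genes. Both shares lie near those of the table as a whole, so the 2-fold counts set the family apart in neither direction. With the ratios centred on the median of all genes, 8 members, 11.9%, passed 2-fold in each direction, against 13.0% of all genes towards PB2 and 12.1% towards the zygote. With the trend on transcript length removed, 6 members, 8.96%, passed it towards PB2 and 11, 16.4%, towards the zygote, against 12.1% and 11.7% of all genes. No member was listed at 0 in either library, and 60 had at least 1 TPM in both.

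**Figure D1:**
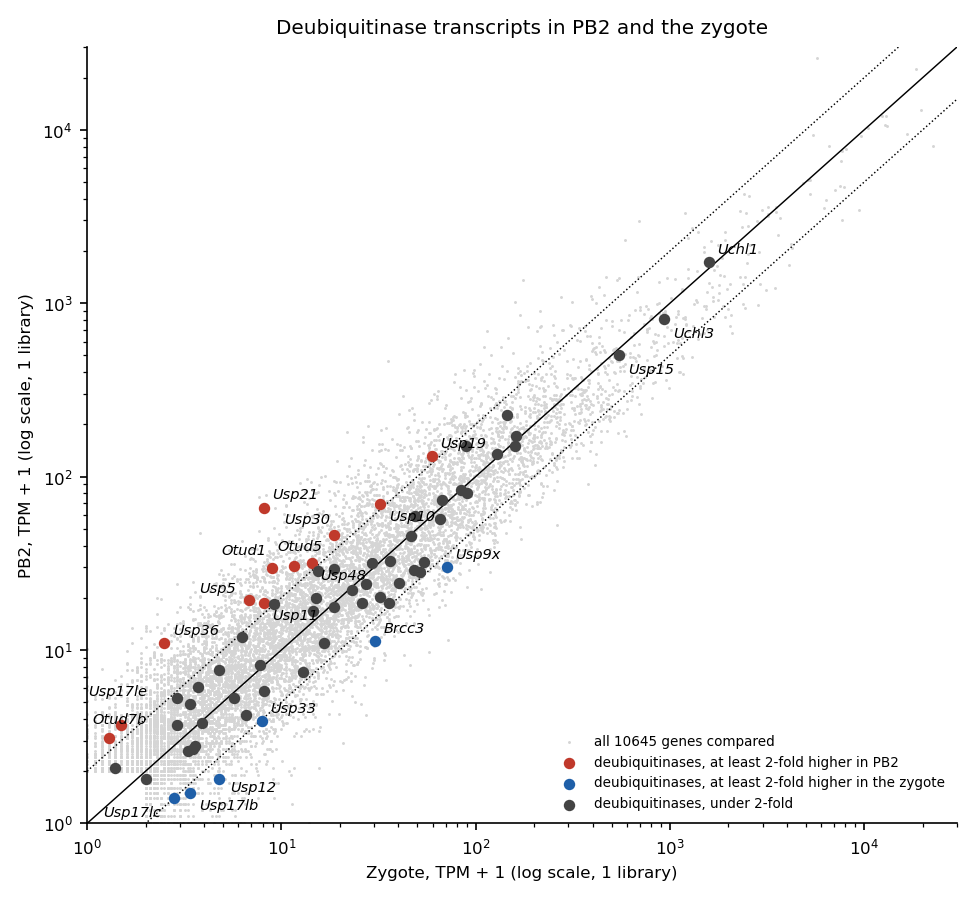
TPM + 1 in the zygote (horizontal, log scale) against PB2 (vertical, log scale), 1 library each, for the 10645 genes compared (grey) and the 67 deubiquitinases compared (coloured), with a solid line at equal values and dotted lines at 2-fold. The abundant Uchl1, Uchl3 and Usp15 lie close to the solid line, and Usp21 and Brcc3 lie beyond 2-fold on opposite sides.

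The summed level of the 68 members was 4973.5 TPM in the zygote against 5208.5 in PB2, a ratio of 1.05. This sum was carried by few genes. Uchl1, a ubiquitin hydrolase abundant in neurons and oocytes, had 1578.7 TPM in the zygote, where it ranked 84 in the table, and 1717.4 TPM in PB2, where it ranked 61. Its log2 ratio was 0.12. Uchl3, a close relative that also cleaves the ubiquitin-like protein Nedd8, had 935.6 TPM in the zygote against 804.5 in PB2. Usp15, a regulator of TGF-β signaling and of Parkin-driven mitophagy, had 547.8 and 498.4 TPM. These 3 genes made up 61.6% of the family's TPM in the zygote and 58.0% in PB2. The order Uchl1, Uchl3, Usp15 was the same in both libraries.

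The abundant members lay close together. There were 7 with at least 100 TPM in both libraries, and their log2 ratios lay between -0.22 and 0.63. Besides the 3 above these were Usp28, Usp7, Usp16 and Usp1. Usp28, which acts in the DNA damage checkpoint and on Myc, had 160.1 TPM in the zygote against 170.0 in PB2. Usp7, the deubiquitinase of p53 and its ligase Mdm2, had 158.4 and 148.6 TPM. Usp16, which removes ubiquitin from histone H2A, had 127.5 and 134.0 TPM. Usp1, which releases ubiquitin from Fancd2 and Pcna in DNA repair, had 144.4 TPM in the zygote against 224.5 in PB2, the log2 ratio furthest from 0 among the 7. For comparison, 82.0% of the 1065 genes at or above 100 TPM in both libraries were less than 2-fold apart. Of the 9 members that reached 100 TPM in either library, 1, Usp19, was at least 2-fold apart.

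The largest difference of the family was that of Usp21, a deubiquitinase of histone H2A that has also been described as stabilizing the pluripotency factor Nanog. It had 7.1 TPM in the zygote against 65.2 in PB2, at a log2 ratio of 3.03. Without the added 1 TPM its level was 9.18 times as high in PB2, and rounding to 1 decimal allows 9.11 to 9.26. Usp21 (ENSMUSG00000053483) is a minus-strand gene on chromosome 1 (GRCm38, 171281945 to 171287991). Usp36, a nucleolar deubiquitinase needed for ribosome production, was next, with 1.5 TPM in the zygote against 9.9 in PB2 and a log2 ratio of 2.12. Rounding allows a ratio between 6.35 and 6.86 for it. Otud1, an OTU enzyme with preference for chains linked through lysine 63 and encoded by a gene of 1 exon, had 7.9 and 28.8 TPM. Usp5, the enzyme that disassembles unanchored ubiquitin chains, had 5.8 TPM in the zygote against 18.5 in PB2. On the scale with 1 TPM added, Usp21 and Usp36 also passed 4-fold, and no member did so towards the zygote.

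Of the other 8 members higher in PB2, 6 had at least 10 TPM there. Otud5, which restrains interferon production, had 10.6 TPM in the zygote against 29.6 in PB2. Usp30, the deubiquitinase of the mitochondrial outer membrane that opposes Parkin, had 17.7 and 45.3 TPM, and 5.43% of its annotated exon bases are shared with Alkbh2 on the opposite strand. Usp11, which acts in homologous recombination repair, had 7.1 and 17.6 TPM. Usp48 had 13.4 TPM in the zygote against 30.6 in PB2. Usp19, which is anchored in the membrane of the endoplasmic reticulum, had 58.4 and 130.1 TPM and was the most abundant of the 12. Usp10, which deubiquitinates p53 and binds the stress granule proteins G3bp1 and G3bp2, had 31.3 and 68.5 TPM. The log2 ratios of these 6 lay between 1.11, for Usp10, and 1.40, for Otud5, a narrow band just past 2-fold. The remaining 2 had under 1 TPM in the zygote. Otud7b, which is selective for chains linked through lysine 11, had 0.3 TPM in the zygote against 2.1 in PB2, and rounding alone allows a ratio between 5.86 and 8.60. Usp17le had 0.5 and 2.7 TPM.

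Of the members higher in the zygote, Brcc3 had the log2 ratio furthest from 0. It encodes the lysine 63-specific metalloprotease of the Brca1-A and BRISC complexes. It had 29.4 TPM in the zygote against 10.2 in PB2. The log2 ratio was -1.44 and the zygote value 2.88 times that of PB2. Usp9x, a large deubiquitinase of β-catenin and Smad4 that is encoded on the X chromosome, had 70.0 TPM in the zygote against 29 in PB2, at a log2 ratio of -1.24. These were the members higher in the zygote that had at least 10 TPM there. Usp12, which works in complex with Wdr48, had 3.8 TPM in the zygote against 0.8 in PB2, a zygote value 4.75 times that of PB2 for which rounding allows 4.41 to 5.13. Usp33, which acts on centrosome duplication and receptor trafficking, had 6.9 and 2.9 TPM. Usp17lb had 2.4 and 0.5 TPM and Usp17lc 1.8 and 0.4 TPM. With 1 TPM added to each value, Usp17lc was exactly at the 2-fold limit, and without it the zygote value was 4.5 times that of PB2.

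Usp17lb, Usp17lc and Usp17le are related genes on chromosome 7 whose sequence similarity was not measured here. How reads that match more than 1 of them were divided in counting is not given in the sources used here. The opposite directions of these genes, Usp17le towards PB2 and the others towards the zygote, are therefore uncertain. Among the 45 members that reached 10 TPM in one library or both, 9 passed 2-fold towards PB2 and 2 towards the zygote, or 20% and 4.44%, against 20.4% and 8.42% of the 6259 genes in that range. The 22 compared members under 10 TPM in both gave 3 towards PB2 and 4 towards the zygote, or 13.6% and 18.2%, against 16.7% and 7.62% of 4386 genes. On the scale with 1 TPM added, Usp51 was just under 2-fold towards PB2, with 8.2 and 17.3 TPM and a log2 ratio of 0.99. Without the added 1 TPM its level was 2.11 times as high in PB2. The histone H2A deubiquitinase Mysm1 was just under 2-fold towards the zygote, with 34.6 and 17.6 TPM and a log2 ratio of -0.94.

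The 3′ ends of 6 members past 2-fold are shown because polyadenylated RNA was what was amplified, and because stored maternal transcripts are lengthened or left silent through short elements near the poly(A) signal. Each window has 30 bases of the last exon in the RNA's sense, with every match to a poly(A) signal (AATAAA or ATTAAA) in capitals. The Usp9x window has both marked, and its ATTAAA lies at the very end of the annotated transcript. Which of them serves as the signal was not tested. The 3 furthest towards PB2 were Usp21 (chr1:171281952-171281981, minus strand), Usp36 (chr11:118259663-118259692, minus strand) and Otud1 (chr2:19660552-19660581, plus strand). From the members higher in the zygote, 3 are shown, Usp12 (chr5:146734827-146734856, minus strand), Usp9x (chrX:13173299-13173328, plus strand) and Usp33 (chr3:152393576-152393605, plus strand). Brcc3, whose log2 ratio was furthest towards the zygote, is not among these 3. The sequences are those of the longest protein-coding transcripts of GENCODE M21 (GRCm38).
Usp21: cacttttttgtgAATAAAtttattaagaaa
Usp36: agatcttggtgcAATAAAgtaatgcatttt
Otud1: atggaatgaatgAATAAAatgtatactttt
Usp12: aaaataatatctATTAAAgttggcttattt
Usp9x: atatacaaaAATAAAactttataaATTAAA
Usp33: cagctaactataAATAAAacttatcaactg

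A poly(A) signal was found in the last 40 bases of 54 of the 64 compared members whose 3′ UTR has at least 100 bases, 84.4%, and of 77.9% of the 10085 such genes of the table. It was present in 11 of the 12 members higher in PB2 and in all 5 members higher in the zygote with such a UTR. The cytoplasmic polyadenylation element, searched as TTTTAT or TTTTAAT on the RNA's strand in the last 100 bases, where it can overlap a poly(A) signal, was found in 6 members, 9.38%, and in 20.1% of all such genes. The 6 were Cyld, Uchl3, Usp22, Usp28, Usp37 and Usp47, and none of them was 2-fold apart. Under 2-fold were 49 of the 67 members compared, these 6 among them, and 7775 of all 10645 genes compared. The element was in no window of the 17 members past 2-fold with such a UTR, towards PB2 or towards the zygote. Over the whole table the median log2 ratio was 0.25 for the 2031 genes with the element and 0.23 for the 8054 without it.

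By catalytic class, the USP class, with 49 members compared (Usp6nl counted with them), had a median log2 ratio of 0.07. Of these 49, 9 passed 2-fold towards PB2 and 5 towards the zygote, or 18.4% and 10.2%, against 18.9% and 8.09% of all genes. The interquartile range of the log2 ratios was 1.96 in the OTU class and 1.16 over the 67 members. Of the 8 OTU members, Otud1, Otud5 and Otud7b were at least 2-fold higher in PB2, while Otub1, Otud6b and Otud3 had log2 ratios of -0.87, -0.72 and -0.66. Otub1, which also blocks ubiquitin transfer by binding E2 enzymes, had 50.8 TPM in the zygote against 27.3 in PB2. The 4 UCH members were under 2-fold. Among them the proteasome-bound Uchl5 had 39.2 TPM in the zygote against 23.4 in PB2, and the tumor suppressor Bap1 had 14.5 and 27.5 TPM. Of the Josephin members, Josd1 had 17.6 and 28.4 TPM, Atxn3, the protein expanded in a spinocerebellar ataxia, 13.6 and 15.7 TPM, and Josd2 7.1 and 4.8 TPM.

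The 3 JAMM metalloproteases each had the higher value in the zygote, with log2 ratios of -1.44 for Brcc3, -0.94 for Mysm1 and -0.09 for Stambp, an endosomal enzyme with 17.7 TPM in the zygote against 16.6 in PB2. A ratio below 0 was also found for 34 of the 67 members compared and for 4262 of all 10645 genes compared. The summed level of the 3 was 81.7 TPM in the zygote against 44.4 in PB2. The median GC content of these transcripts was 40%, below the 49.1% of all genes compared. With the GC trend removed, Brcc3, Mysm1 and Stambp had log2 ratios of -0.91, -0.60 and -0.14, none of them past 2-fold.

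**Figure D2:**
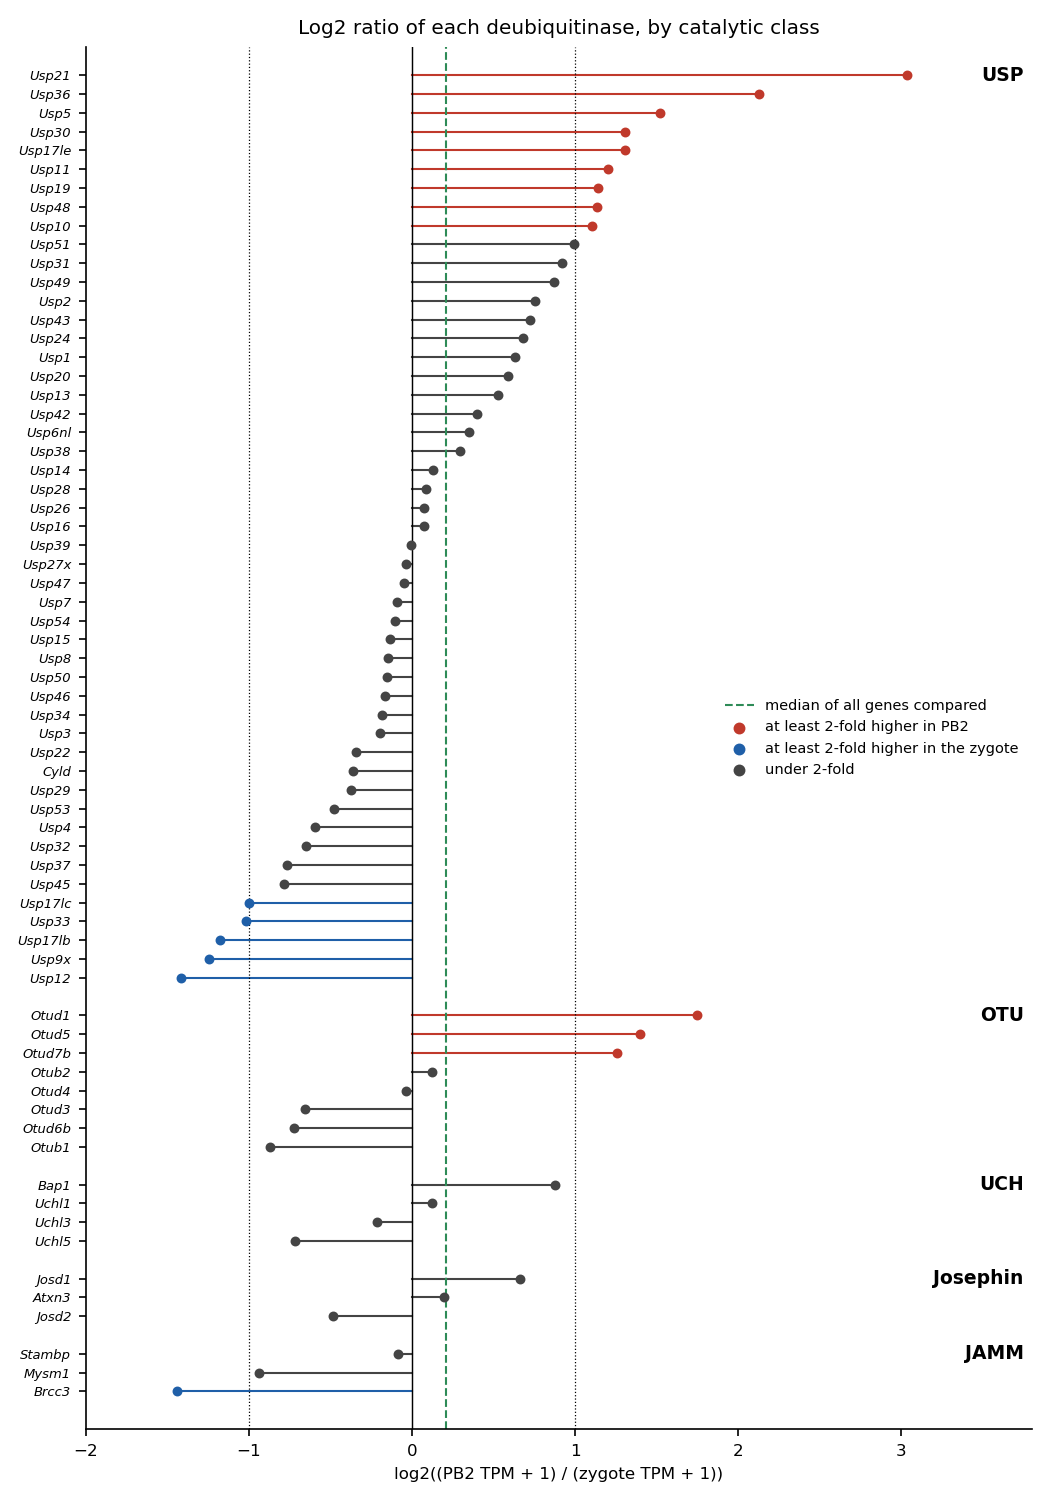
Log2 ratio of TPM + 1 (PB2 over zygote, horizontal) for each of the 67 deubiquitinases compared, ordered within its catalytic class. Red marks 2-fold or more towards PB2, blue 2-fold or more towards the zygote, grey less, dotted lines 2-fold and the dashed line the median of all genes compared, 0.21; the 3 JAMM members lie left of 0, and the OTU class splits to both sides.

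The members were also grouped by role, by hand, into small groups whose counts are to be read beside the 18.9% of all genes past 2-fold towards PB2 and the 8.09% towards the zygote. The enzymes of histone H2A and H2B had 1 member of 9 past 2-fold, Usp21, and a median log2 ratio of 0.07. Usp3 had 64.6 TPM in the zygote against 56.2 in PB2, and Usp49 had 1.9 and 4.3 TPM, with 51.2% of its exon bases shared with an overlapping gene model on the same strand. The DNA damage response group, 10 members, held Usp11 and Usp48 on the PB2 side and Brcc3 on the zygote side, with a median of 0.02. The group of NF-κB and innate immunity held 3 of 6 members at least 2-fold higher in PB2, Otud1, Otud5 and Otud7b, and none higher in the zygote. In that group Otud4 had 45.7 and 44.6 TPM, Usp31 5.3 and 10.9 TPM and Cyld, which cleaves chains linked through lysine 63, 2.6 and 1.8 TPM.

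Enzymes of the endoplasmic reticulum and mitochondria had 2 of 5 members past 2-fold towards PB2, Usp19 and Usp30, and none towards the zygote. Neither stayed past 2-fold with the GC trend removed, at log2 ratios of 0.30 and 0.67. In the endosomal and membrane traffic group, Usp12 and Usp33 were past 2-fold towards the zygote among 7 members and none towards PB2, and Usp33 was at -0.85 with that trend removed. Usp8, the main endosomal deubiquitinase of the epidermal growth factor receptor, had 35.3 TPM in the zygote against 31.8 in PB2. Of the 5 genes of the proteasome and of free ubiquitin, Usp5 passed 2-fold towards PB2. The proteasome-bound Usp14 had 66.3 and 72.7 TPM, and 26.0% of its exon bases are shared with Thoc1 on the opposite strand. Of the 6 members tied to RNA or ribosomes, Usp36 and Usp10 passed 2-fold towards PB2. Usp39, a spliceosome component of the family, had 83.4 and 82.9 TPM, the log2 ratio nearest to 0 of all members. In the group of signaling and cell cycle, 1 of 8 members passed 2-fold, Usp9x. Usp2, a stabilizer of cyclin D1, had 88.1 TPM in the zygote against 149.1 in PB2, and Usp37, which acts on cyclin A, had 53.5 and 31.0 TPM. The other 12 members had no role assigned, and of the 11 compared, 3 passed 2-fold, the Usp17l genes.

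Close relatives were set side by side. Of 23 pairs of related genes listed, 16 had both members in the table. In 9 of the 16 the log2 ratios had opposite signs, where the members as a whole divided into 33 above 0 and 34 below. In 9 they differed by at least 1. Some genes, such as Usp4, are in more than 1 pair, and pairs of unrelated genes were not counted. Whether relatives differ more than other members was therefore not tested. Usp4, Usp11 and Usp15 are paralogs with the same domain order. Usp15 was the abundant one in both libraries, Usp4 had 15.6 TPM in the zygote against 10 in PB2, and Usp11 had 7.1 and 17.6 TPM, so that Usp4 was 2.20 times Usp11 in the zygote and 0.57 times it in PB2. Usp12 and Usp46 are both activated by Wdr48 and Wdr20. Usp46 had 88.9 TPM in the zygote against 79.1 in PB2, far above Usp12 in each library. Usp33 and its relative Usp20, with 0.4 and 1.1 TPM, lay on opposite sides of 0. Usp21 and Usp2 have related catalytic domains, and Usp2 was 12.4 times Usp21 in the zygote and 2.29 times it in PB2. Usp42 was under 2-fold, with 14.1 and 18.9 TPM, beside its relative Usp36. The smallest difference in log2 ratio among the 16 pairs was 0.31 between Usp22 and Usp27x, which had 2.3 and 2.9 TPM in the zygote and 1.6 and 2.8 TPM in PB2.

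The log2 ratio of the deubiquitinases moved with the GC content of their transcripts. Across the 67 members Spearman's rho was 0.51 with transcript GC content and 0.55 with the GC content of the coding sequence, against 0.44 and 0.47 across 10606 genes of the table. These are descriptions across genes of the same pair of libraries. Median GC content was 54.4% for the 12 members higher in PB2, from 48.5% to 57.5%, and 45.9% for the 6 higher in the zygote, from 35.5% to 49.8%. Of the 31 members at or above the table's median of 49.1% GC, 11 passed 2-fold towards PB2, or 35.5%, against 31.2% of all genes in that range. Of the 36 below it, 1 did, Otud7b, or 2.78%, against 6.64%. The part of GC content in each difference was not tested.

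With the average trend on GC content removed, 4 members stayed at least 2-fold higher in PB2, 5.97% of 67, against 9.08% of all genes with a transcript. These were Usp21 with a log2 ratio of 2.26, Usp36 with 1.39, Otud7b with 1.11 and Otud1 with 1.06. Higher in the zygote were 6 members, 8.96%, against 11.0% of all such genes. Of these, Usp12, Usp17lb and Usp17lc were among the 6 found without the correction. The other 3 were Otub1 at -1.62, Otud3 at -1.55 and Josd2 at -1.51, genes of high GC content and a higher value in the zygote. Brcc3, Usp9x and Usp33 then had log2 ratios of -0.91, -0.91 and -0.85.

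**Figure D3:**
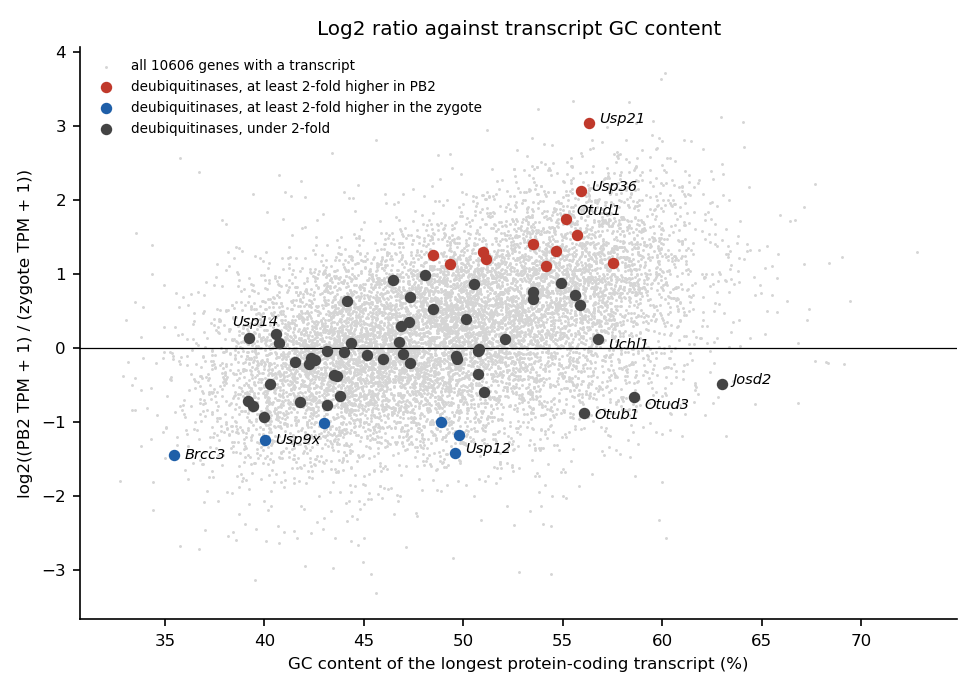
Log2 ratio of TPM + 1 (PB2 over zygote) against the GC content of each gene's longest protein-coding transcript, for 10606 genes (grey) and the 67 deubiquitinases compared (coloured by 2-fold). Usp21 is the highest of the members, Brcc3 lies at the low end of GC content, and Otub1, Otud3 and Josd2 below the trend at high GC content.

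Many deubiquitinases work only with partner proteins, and 36 of the 38 listed partner genes were compared. Their median log2 ratio was 0.48. Of them 11, or 30.6%, passed 2-fold towards PB2 and 3, or 8.33%, towards the zygote, against 18.9% and 8.09% of all genes. The Brcc3 complexes were divided. Abraxas1, the scaffold of the nuclear Brca1-A complex, had 127.3 TPM in the zygote against 63.0 in PB2, on the same side as Brcc3. Abraxas2 and Shmt2, the scaffold and the metabolic enzyme of the cytoplasmic BRISC complex, had 6.4 and 15.7 TPM and 54.5 and 114.0 TPM, on the other side. Uimc1, which recruits Brca1-A to ubiquitin chains, had 15.7 and 15.8 TPM. The shared subunits Babam1 and Babam2 had log2 ratios of 0.70 and -0.72. With the GC trend removed these were -0.05 and -1.29. Brcc3 and Abraxas1 were then at -0.91 and -0.78, and Abraxas2 and Shmt2 at 1.24 and 0.22.

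The activators Wdr48 and Wdr20 had the higher value in PB2, Wdr48 with 128.6 and 203.8 TPM and Wdr20 with 118.2 and 288.0 TPM, beside Usp1 at a log2 ratio of 0.63, Usp46 at -0.17 and Usp12 at -1.42. Of the partners of Bap1 in the Polycomb repressive deubiquitinase, Foxk1 had 4.0 and 19.8 TPM, Foxk2 19.6 and 60.5 TPM and Hcfc1 8.3 and 22 TPM, each at least 2-fold higher in PB2. Its regulatory subunit Asxl1 had 31.6 and 48.4 TPM. Also listed as partners of Bap1, Asxl2 had 1.2 and 1.9 TPM and Asxl3, on the zygote side, 2.5 and 1.3 TPM. With the GC trend removed, Foxk1, Foxk2 and Hcfc1 had log2 ratios of 1.30, 1.06 and 0.69. Spata2, which joins Cyld to the linear chain ligase, had 3.6 TPM in the zygote against 23.3 in PB2, the largest log2 ratio of the partners at 2.40, whereas Cyld was at -0.36. Sart3, which brings Usp4 and Usp15 to the spliceosome, had 30.3 and 110.4 TPM while both enzymes had ratios below 0.

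Both partners of the endosomal enzymes Usp8 and Stambp that form the ESCRT-0 complex with Hgs were lower in PB2. Stam had 20.9 TPM in the zygote against 7.7 in PB2, and Stam2 had 9.1 and 2.9 TPM, whereas Hgs had 20.6 and 24.4 TPM. Ptpn23, listed with them, went the other way, with 4.6 and 12 TPM and a log2 ratio of 1.22. Usp10 and its partner G3bp1, with 6.3 and 19.3 TPM, were each at least 2-fold higher in PB2, and G3bp2 had 238.8 and 282.6 TPM. In the SAGA deubiquitinase module, Usp22 stood at 2.3 and 1.6 TPM beside Eny2, a small subunit shared with the mRNA export complex, at 1010.6 and 694.8 TPM. Of the Atxn7 subunits and relatives, Atxn7 had 12.2 and 22.2 TPM and Atxn7l2 0.6 and 4.1 TPM, Atxn7l3b had a log2 ratio of 0.49, and Atxn7l1 was on the zygote side at -0.58. Gmps, the activating partner of Usp7, had 89.0 and 48.9 TPM.

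**Figure D4:**
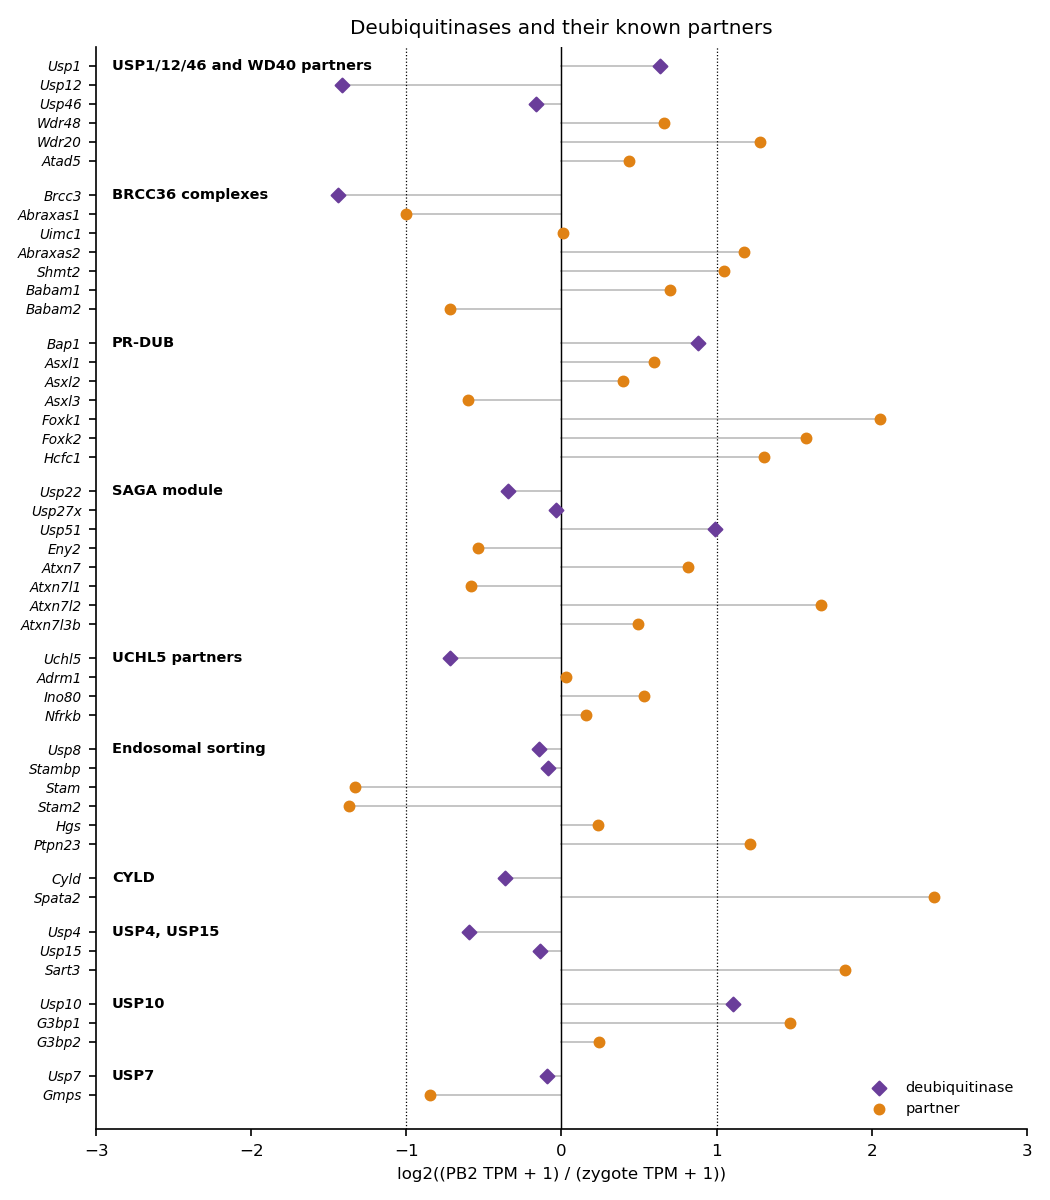
Log2 ratio of TPM + 1 (PB2 over zygote) for deubiquitinases (diamonds) and listed partners (circles), grouped by complex, with dotted lines at 2-fold. In the BRCC36 complexes Brcc3 and Abraxas1 lie left of 0 and Abraxas2 and Shmt2 right of it, and Foxk1, Foxk2 and Hcfc1 of PR-DUB lie past 2-fold towards PB2.

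Deubiquitinases and related proteins outside the symbol rule were examined through a list of 21 genes, of which 17 were compared. Their median log2 ratio was 0.19. Of the 17, 3 passed 2-fold towards PB2 and 2 towards the zygote, or 17.6% and 11.8%, against 18.9% and 8.09% of all genes. Higher in the zygote were Zup1, specific for lysine 63 chains, with 258.5 TPM in the zygote against 112.1 in PB2, and Psmd14, the metalloprotease of the proteasome lid, with 30.7 and 13.5 TPM. Higher in PB2 were Mindy1, with 49.3 and 116.3 TPM, Otulin, which cleaves linear chains, with 3.0 and 7.9 TPM, and Prpf8, a spliceosome protein with an inactive JAMM-like domain, with 7.3 and 27.5 TPM. The JAMM enzyme of the signalosome, Cops5, which removes Nedd8 from cullins, had 28.3 and 17.1 TPM. Among other proteins with JAMM-like domains, the translation factor subunit Eif3h had 80.5 and 50.2 TPM and the proteasome subunit Psmd7 146.4 and 143.3 TPM. On the PB2 side of 0 were Mpnd, with 1.7 and 4.1 TPM, Eif3f, with 3.5 and 5.9 TPM, and Cops6, with 11.6 and 13 TPM, so the listed genes with such domains lay on both sides.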

How the data were processed

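The data are RNA-seq of PB2 and of zygotes, 1 library each. The authors' methods and the submitters' processing notes give HISAT2 (2.0.4), HTSeq (0.6.1p1, Ensembl annotation) and DESeq2 (1.18.1); they name both OryCun2.0, a rabbit assembly, and GRCm38, while the identifiers are mouse. The authors deposited TPM, and how it was computed from counts is not given in the sources used here. Each value column was matched to its sample by name. The table analysed here holds 92.7% of a full library's TPM for the zygote and 89.8% for PB2.

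The log2 ratio used a pseudocount of 1 and genes with at least 1 TPM in either library, which understates changes of low genes. A gene was called at 2-fold. Members, gene lists, roles and alternatives were chosen with earlier results of these data known. Genes named were members past 2-fold, the 8 most abundant, in each role group the member with the highest mean TPM and that with the log2 ratio furthest from 0, members of the listed pairs, and members at 0 in a library or under 1 TPM in both. Other members and the partner genes were named after their values were seen, to describe their class or complex. GC content, length and positions came from the longest protein-coding transcript in GENCODE M21 (GRCm38), found for all 68 members and 11221 of 11262 identifiers. Trends were fitted by loess (span 0.3). The functions were checked on simulated data. Some listed items are not reported here. Alternatives were other pseudocounts, filters, thresholds and scalings, and taking out the trend on GC content or on length. Calculations ran in Python (3.11.15) with pandas (2.3.3), numpy (2.4.6) and statsmodels (0.14.6), and plots were drawn with matplotlib (3.10.9).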

Additional observations from a re-analysis of the deposited data

How the results depend on the processing

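No paired analysis was possible because each group has 1 library. The count of deubiquitinases at least 2-fold higher in PB2, 12, became 4 with the GC trend removed, 6 with the length trend removed, 22 at a 1.5-fold threshold and 2 at 4-fold. With pseudocounts of 0.1 and 0.01 it was 16 in each case. The count in the zygote, 6, became 3 with at least 5 TPM in either library, 11 with the length trend removed, 15 at 1.5-fold and 0 at 4-fold. Centring on the median of all genes, a shift of 0.21, gave 8 in each direction, against 1387 in PB2 and 1291 in the zygote over the table, and moved the members' median to -0.22. With the length trend removed that median was -0.26, and it lay above 0 with the GC trend removed (0.03) and with at least 5 TPM (0.07). The other shifts of these counts were within 1.5 times. The ratio of summed TPM was 1.05, and 0.99 after the zygote was scaled to the median ratio of genes with at least 10 TPM in both. Of 350 values of single genes under alternatives, 30 moved by more than 0.5 on the log2 scale, 16 of them with the GC trend removed, and no gene past 2-fold changed direction. Depth is unknown, so the precision of members under a few TPM cannot be given.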

Other observations

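The genes that encode ubiquitin itself were looked at beside the enzymes that release it. Ubb, a gene of several ubiquitin repeats in tandem, had 1390.3 TPM in the zygote against 622.0 in PB2, a log2 ratio of -1.16. Rps27a, a ribosomal protein fused to ubiquitin, had 6.0 TPM in the zygote against 7.2 in PB2.

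Other parts of the ubiquitin system differed in their medians, side by side and untested. The median log2 ratio was 0.43 for 97 Rnf and Trim genes, which encode RING ligases for the most part, 0.17 for 30 E2 genes and -0.30 for 34 proteasome subunit genes, against -0.01 for the 67 deubiquitinases. Of the proteasome genes 2.94% passed 2-fold towards PB2 and 32.4% towards the zygote, against 17.9% and 8.96% of the deubiquitinases and 18.9% and 8.09% of all genes.

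Of the 7 deubiquitinases encoded on the X chromosome, looked at after their values were seen, 2 were at least 2-fold higher in PB2 (Usp11 and Otud5) and 2 in the zygote (Brcc3 and Usp9x), against 18.9% and 8.09% of all genes. With the GC trend removed none of the 4 was past 2-fold.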
